A study of Mus musculus with 8 samples.

Results

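Of the 8 genes described here, all encode enzymes of cholesterol synthesis: Hmgcs1, Mvd, Idi1, Fdft1, Sqle, Lss, Cyp51 and Dhcr7. They were taken by gene symbol, with the transcript cluster of highest mean for each symbol, out of 19505 symbols and 22206 transcript clusters on the array. Each symbol had 1 cluster, and all 8 lay above the background level in all 8 arrays. That level was the 95th percentile of 23 background probe sets per array, at log2 values between 5.73 and 5.99.

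Postnatal mouse tail-tip fibroblasts (TTFs) were all transduced with GHMT retroviruses, a mixture known in this field for the cardiac transcription factors Gata4, Hand2, Mef2c and Tbx5, and their RNA was read on Clariom S mouse arrays. TTF set 1 held 1 array each of GHMT alone (called vehicle here, since the growth protocol lists DMSO), GHMT with the cyclooxygenase inhibitor diclofenac, GHMT with an antagonist of the prostaglandin E2 (PGE2) receptor EP4, and GHMT with diclofenac plus PGE2. TTF set 2 held 1 array each of GHMT, GHMT with the EP4 antagonist, GHMT with a TGFb inhibitor and GHMT with a Wnt inhibitor. The title of the series names inhibition of cyclooxygenase-2, PGE2 and EP4 signalling in cardiac reprogramming, and the question put here is what the synthesis enzymes did under these agents. All cultures carried the retroviruses, so no array shows untransduced fibroblasts, and no doses were given in the labels. The agents were added together with the viruses, and the medium, replaced after 24 h, held fetal bovine serum. The labels do not say whether the sets came from separate animals, and p-values cover only the scatter among the arrays, which may be technical.

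Cells make cholesterol from acetyl-CoA through mevalonate, the isoprenoid farnesyl diphosphate, squalene and lanosterol. When sterol in the endoplasmic reticulum is low, the escort protein SCAP carries the transcription factor SREBP-2 to the Golgi, where it is cut, and the freed fragment enters the nucleus and switches on nearly all of these enzymes. When sterol is plentiful, INSIG proteins hold SCAP back, and oxysterols made from cholesterol activate LXR receptors, which switch on cholesterol export.

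The upstream sequences are shown because these enzymes are known targets of SREBP-2, which binds sterol regulatory elements beside the factors NF-Y and Sp1. Promoters from RefSeq (GRCm38.p6) were matched for 6 members, and Fdft1 and Sqle were not matched. The 150 bases before the start are printed 5′ to 3′ on the gene's strand. Capitals mark the element TCACNCCAC and the NF-Y box CCAAT, on either strand (ATTGG is its reverse).
Hmgcs1, chr13:119690201-119690350, plus strand: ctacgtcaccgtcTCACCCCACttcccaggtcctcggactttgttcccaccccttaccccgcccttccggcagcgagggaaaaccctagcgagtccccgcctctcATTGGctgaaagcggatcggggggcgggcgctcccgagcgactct
Mvd, chr8:122443423-122443572, minus strand: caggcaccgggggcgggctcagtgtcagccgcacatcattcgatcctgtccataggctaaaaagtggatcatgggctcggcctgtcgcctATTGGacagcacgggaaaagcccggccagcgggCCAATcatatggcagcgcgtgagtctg
Idi1, chr13:8885456-8885605, plus strand: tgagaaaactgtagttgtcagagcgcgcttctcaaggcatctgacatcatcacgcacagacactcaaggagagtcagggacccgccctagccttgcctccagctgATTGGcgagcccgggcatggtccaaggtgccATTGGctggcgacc
Lss, chr10:76531455-76531604, plus strand: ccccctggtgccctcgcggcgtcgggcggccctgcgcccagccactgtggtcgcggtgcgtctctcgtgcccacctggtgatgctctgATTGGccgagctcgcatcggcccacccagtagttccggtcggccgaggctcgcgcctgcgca
Cyp51, chr5:4104698-4104847, minus strand: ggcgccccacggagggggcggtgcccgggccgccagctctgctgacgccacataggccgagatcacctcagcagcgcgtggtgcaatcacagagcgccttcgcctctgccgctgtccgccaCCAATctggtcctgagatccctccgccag
Dhcr7, chr7:143830064-143830213, plus strand: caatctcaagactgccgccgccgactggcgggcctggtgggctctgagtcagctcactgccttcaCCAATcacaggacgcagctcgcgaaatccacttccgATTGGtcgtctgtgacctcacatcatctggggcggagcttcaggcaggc

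Within 250 bases before to 50 after a start, on both strands, TCACNCCAC was found in 1 of the 6 genes, Hmgcs1, at position -137 relative to the start, and in 1.44% of 27025 genes of the table. CCAAT was found at 1 or more starts of 6 of the 6 genes, against 41.1% of genes. The Sp1 box GGGCGG was also found in 6 of 6, against 38.2% of genes. CACGTG was found in 1 of 6, at another start of Dhcr7, and in 8.09% of genes. No 2 matches overlapped in the members' windows. A match is a description of the letters and shows no binding, and Dhcr7 was searched at 3 annotated starts, of which the printed one holds both CCAAT boxes.

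Array quality and cell identity bear on all values below. Correlations between arrays over all clusters were 0.986 to 0.995 within a set and 0.974 to 0.984 between sets. Of 12 fibroblast markers 11 were measured, and all 11 lay above background in all 8 arrays. Of 10 cardiomyocyte markers, Myh7, Tnni3 and Myl2 were at background in all 8 arrays. All 8 keratinocyte and all 7 endothelial markers were at background in all 8 arrays, as were 5 of 6 measured macrophage and leukocyte markers. In bulk RNA, fewer cells of a type and less RNA per cell cannot be told apart. A difference of log2 values of 1 array from 1 has no replicate check, and such differences are counted at 1.5-fold or more, beside the same count over all 22206 clusters.

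In set 2 the early enzymes were lower with the TGFb and Wnt inhibitors than with vehicle or the EP4 antagonist. Hmgcs1 makes HMG-CoA, an early intermediate on the way to mevalonate, and its log2 values in set 1 were 14.87 with vehicle, 14.56 with diclofenac, 14.52 with the EP4 antagonist and 14.64 with diclofenac plus PGE2. In set 2 they were 15.11 with vehicle, 14.76 with the EP4 antagonist, 14.08 with the TGFb inhibitor and 14.23 with the Wnt inhibitor. The vehicle array was the highest in each set, and the 2 inhibitor arrays of set 2 were the lowest of all 8. Mvd, which removes carbon dioxide from mevalonate diphosphate to give isopentenyl diphosphate, had values of 8.62, 8.62, 8.40 and 8.23 in set 1 in the same order. In set 2 its values were 8.82 with vehicle, 9.09 with the EP4 antagonist, 8.01 with the TGFb inhibitor and 7.61 with the Wnt inhibitor. Both inhibitor arrays lay below every other array for Mvd. Idi1, which turns isopentenyl into dimethylallyl diphosphate, had values of 10.77, 10.52, 10.74 and 10.84 in set 1, and of 11.56, 11.42, 10.80 and 11.01 in set 2. Its inhibitor arrays lay below the other arrays of set 2 but within or above the range of set 1.

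Among the squalene enzymes the sets overlapped for Fdft1 alone. Fdft1 joins farnesyl diphosphate into squalene, and its log2 values were 11.73, 11.56, 11.52 and 11.84 in set 1 and 12.22, 12.27, 11.59 and 11.49 in set 2. Sqle, which adds oxygen to squalene and is a second control point of the pathway, had values of 9.14, 9.04, 8.89 and 9.25 in set 1. In set 2 Sqle stood at 10.03 with vehicle, 10.55 with the EP4 antagonist, 9.43 with the TGFb inhibitor and 9.56 with the Wnt inhibitor. All set 2 values of Sqle were above all set 1 values. Lss, which closes the ring to lanosterol, had values of 11.17, 11.06, 10.95 and 11.17 in set 1 and of 11.75, 11.84, 11.33 and 11.29 in set 2. The same held for Lss, and for Fdft1, Sqle and Lss alike the 2 inhibitor arrays were the lowest of set 2.

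The late enzymes were less uniform. Cyp51, the lanosterol demethylase, had values of 12.21, 12.41, 12.63 and 12.66 in set 1 and of 13.34, 12.96, 12.73 and 12.54 in set 2. Its vehicle array was the lowest of set 1 and the highest of set 2. Dhcr7, which reduces 7-dehydrocholesterol to cholesterol, had values of 9.73, 9.78, 9.47 and 9.87 in set 1. In set 2 Dhcr7 stood at 10.14 with vehicle, 9.67 with the EP4 antagonist, 8.73 with the TGFb inhibitor and 9.88 with the Wnt inhibitor. Only the TGFb inhibitor array of Dhcr7 was outside the range of the other arrays on the low side. Over the 8 arrays, 4 members were highest in the vehicle array of set 2 and 4 in the EP4 antagonist array of set 2. The same count over all clusters was not made, and the level of set 2 against set 1 depends on the scaling.

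**Figure D1:**
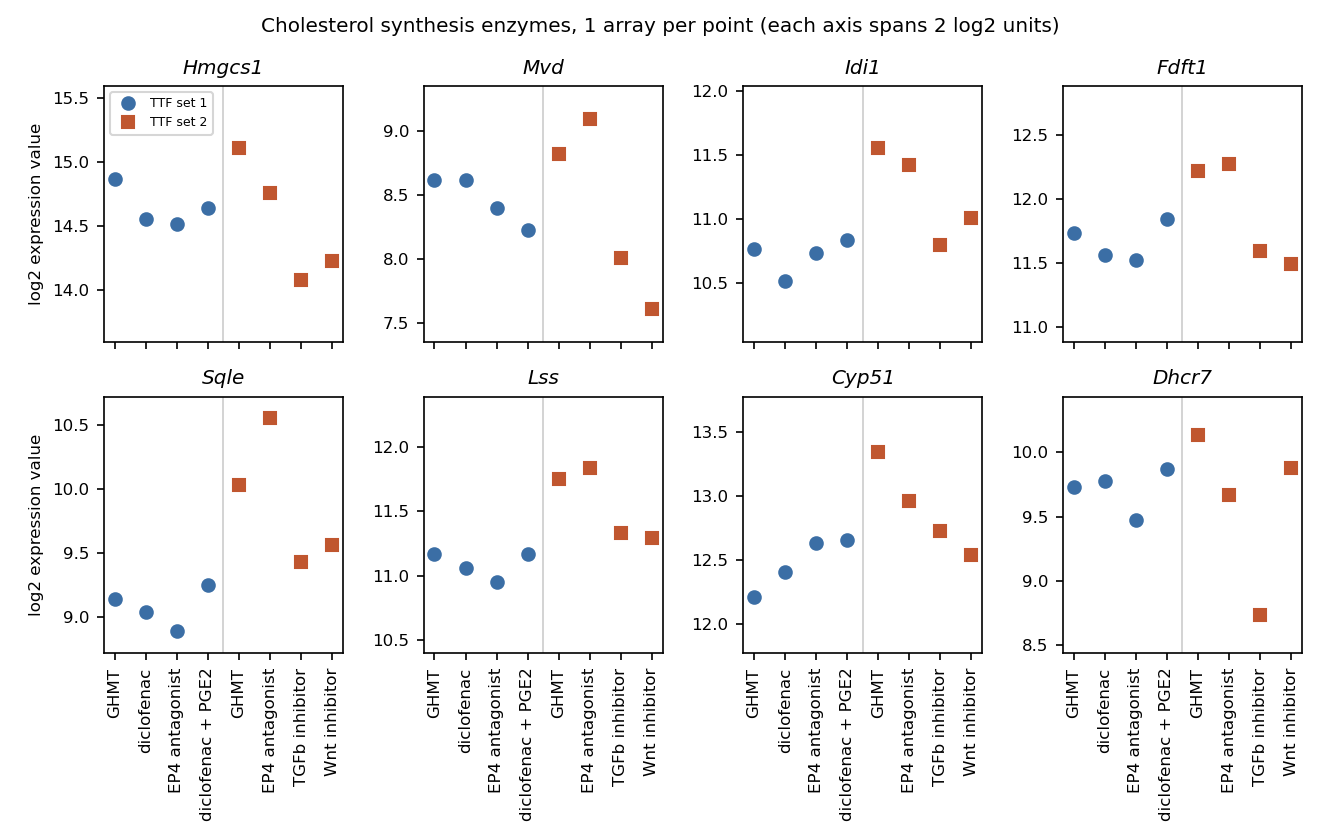
Log2 expression values (vertical axis, a window of 2 log2 units per panel) of the 8 enzymes in each array (horizontal axis), with circles for TTF set 1 and squares for TTF set 2. In set 2 the TGFb and Wnt inhibitor arrays are the lowest for 7 enzymes, and for Dhcr7 the TGFb inhibitor array alone stands low at 8.73.

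With the TGFb inhibitor, all 8 enzymes had lower values than with vehicle in set 2. The differences ran from -1.41 for Dhcr7 to -0.42 for Lss, with a median of -0.69 on the log2 scale, or 1.62-fold. Hmgcs1 was 2.04-fold lower and Dhcr7 2.66-fold lower, and Mvd (-0.81), Idi1 (-0.76), Fdft1 (-0.63), Cyp51 (-0.61) and Sqle (-0.60) were also past 1.5-fold. That is 7 of 8 members past 1.5-fold lower, where 8.26% of all clusters were, and 50.4% of all clusters were lower by any amount. Among the 8813 clusters above background in all arrays, 10.6% were 1.5-fold lower. There is 1 array on each side, and no test of these differences was run.

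With the Wnt inhibitor, all 8 enzymes again had lower values than the same vehicle array. Mvd, the enzyme with the largest difference, was 2.31-fold lower (-1.21), followed by Hmgcs1 (-0.88), Cyp51 (-0.80) and Fdft1 (-0.73). These 4 of 8 were past 1.5-fold, where 8.15% of all clusters were, and 9.7% of clusters above background; 51.2% of all clusters were lower by any amount. Idi1 (-0.55), Sqle (-0.47), Lss (-0.46) and Dhcr7 (-0.26) were lower by less, and the median of the 8 was -0.64.

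The TGFb and Wnt inhibitor comparisons share the vehicle array of set 2, so each was also set against the EP4 antagonist array of set 2, a reference added after the values were seen. Against it the TGFb inhibitor array was lower for 8 of 8 members, where 50% of all clusters were, with differences from -1.12 for Sqle to -0.23 for Cyp51 and a median of -0.68. Of these 6 were past 1.5-fold, where 9.5% of all clusters were. The Wnt inhibitor array was lower for 7 of 8, where 50.4% of all clusters were, with a median of -0.54, and for Dhcr7 it was higher by 0.21. Of these 7 the values of 3 were past 1.5-fold (Mvd -1.48, Sqle -0.99 and Fdft1 -0.78), where 9.05% of all clusters were. Both inhibitor arrays lay below both other arrays of set 2 for 7 of 8 members, and for 20.1% of all clusters and 24.9% of clusters above background. Dhcr7 was the member left out.

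Set directly against each other, the TGFb inhibitor array was below the Wnt inhibitor array for 4 members and above it for 4. It was below for 48.6% of all clusters. The median difference of the 8 members was -0.04. Dhcr7 was 2.22-fold lower with the TGFb inhibitor, the only member past 1.5-fold in this comparison, where 8.0% of all clusters were lower and 7.5% higher. Mvd was higher with the TGFb inhibitor by 0.40, and the other 6 lay between -0.21 and 0.19.

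**Figure D2:**
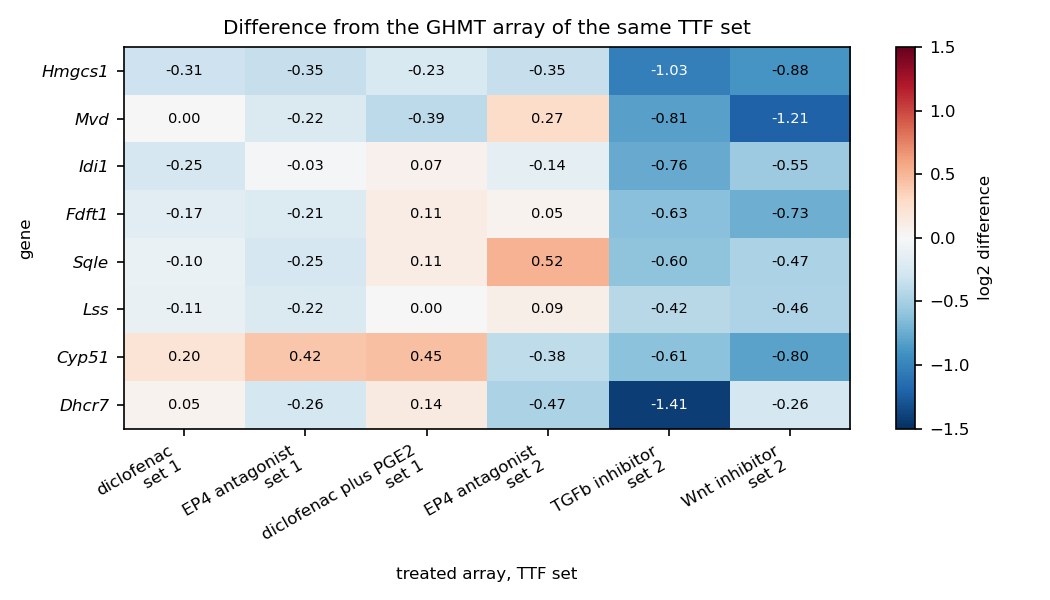
Log2 difference of each treated array from the GHMT vehicle array of its own TTF set, for the 8 enzymes (rows) and 6 treated arrays (columns), with blue for lower and red for higher values. The columns of the TGFb and Wnt inhibitors are negative for all 8 enzymes, and the other 4 columns hold no difference past 1.5-fold.

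Under the agents acting on the PGE2 route no enzyme reached 1.5-fold. With diclofenac, which blocks prostaglandin synthesis, the differences from vehicle in set 1 ran from -0.31 for Hmgcs1 to 0.20 for Cyp51, with a median of -0.10. With the EP4 antagonist they ran from -0.35 for Hmgcs1 to 0.42 for Cyp51 in set 1 (median -0.22), and from -0.47 for Dhcr7 to 0.52 for Sqle in set 2 (median -0.04). None of the 8 members was past 1.5-fold in any of these 3 comparisons. In the same comparisons 5.41%, 5.36% and 6.63% of all clusters were 1.5-fold lower, and 5.46%, 5.01% and 6.18% were 1.5-fold higher. Hmgcs1 was lower with diclofenac by 0.31 and with the EP4 antagonist by 0.35 in each set. The differences in set 1 share 1 vehicle array (14.87), and the array with diclofenac plus PGE2 (14.64) was below it too. Cyp51 differed by 0.42 in set 1 and by -0.38 in set 2 with the same antagonist.

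Adding PGE2 back to diclofenac gave higher values for 7 of 8 enzymes than diclofenac alone, by 0.08 for Hmgcs1 to 0.32 for Idi1. Mvd was the exception, with a difference of -0.39. In this comparison of 1 array with 1, 48.4% of all clusters were lower, and 46.7% of those above background. None of the 8 was past 1.5-fold, where 5.48% of all clusters were lower and 4.95% higher. Against vehicle, the culture with diclofenac plus PGE2 had 5 members higher and 2 lower, with Lss equal. Of all clusters 49.9% were lower, and of those above background 43.8%. The members ranged from -0.39 for Mvd to 0.45 for Cyp51. None was past 1.5-fold here either, where 5.42% of all clusters were lower and 5.04% higher.

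Replicated arrays allowed a test of PGE2-EP4 signalling, with 3 arrays in which it was inhibited (1 diclofenac and 2 EP4 antagonist cultures) against 3 in which it was active (2 vehicle cultures and 1 with diclofenac plus PGE2). No enzyme passed at a Benjamini-Hochberg adjusted p of 0.05 in limma. Dhcr7 differed by -0.27 (SE 0.22, adjusted p = 1.0) and Hmgcs1 by -0.26 (SE 0.22, adjusted p = 1.0), and both were on the lower side. The other 6 differences ran from -0.16 for Idi1 to 0.15 for Mvd. The median of the 8 was -0.11 and that of all clusters -0.01, and none of the 8 had an unadjusted p under 0.05. Over all clusters 0.0% passed (0 of 22206, with 469 at an unadjusted p under 0.05). The 95% intervals were wide without the TTF set in the fit, from -1.0 to 1.04 for Sqle.

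With the TTF set as a block, the same estimates had SEs of 0.15 to 0.19, and again no member passed. In that fit 84 clusters passed, or 0.378%, and 1925 had an unadjusted p under 0.05. The interval for Hmgcs1 was -0.60 to 0.08 (adjusted p = 0.717 by limma), and that for Dhcr7 was -0.64 to 0.09 (adjusted p = 0.727). The interval for Lss was -0.42 to 0.26 and that for Idi1 -0.50 to 0.17. Over the 8 members the lowest lower bound was -0.64, for Dhcr7, and the highest upper bound 0.52, for Mvd.

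**Figure D3:**
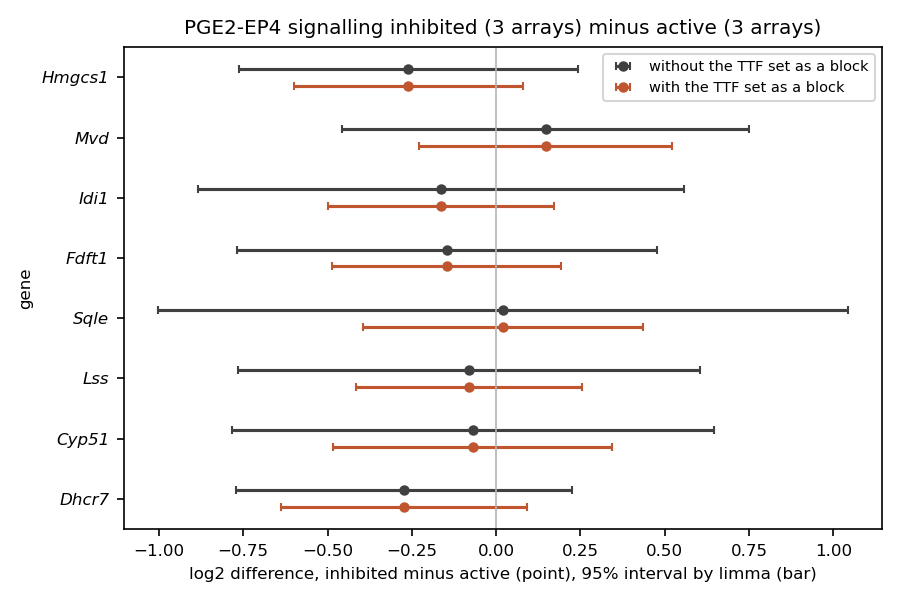
Difference in log2 value between arrays with PGE2-EP4 signalling inhibited (3) and active (3) for each enzyme, with points for the limma estimate and bars for its 95% interval, in grey without and in orange with the TTF set as a block. All intervals span 0, and those with the block are narrower.

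The EP4 antagonist against vehicle, 2 arrays against 2, left all 8 enzymes short of the threshold. Dhcr7 differed by -0.36 (SE 0.37) and Hmgcs1 by -0.35 (SE 0.36), and the remaining 6 lay between -0.08 for Idi1 and 0.14 for Sqle. Adjusted p in limma was 1.0 for each of the 8, and 0.0% of clusters passed (0 of 22206, with 144 at an unadjusted p under 0.05). With the block the interval for Hmgcs1 was -0.83 to 0.13 (adjusted p = 0.920 by limma), and again no cluster passed, with 1243 at an unadjusted p under 0.05.

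The vehicle arrays of the sets differed for the enzymes, with set 2 higher for 8 of 8 and for 40.5% of all clusters, but for 67.1% of those above background, where all 8 lie. The differences were 1.13 for Cyp51, 0.89 for Sqle, 0.79 for Idi1, 0.58 for Lss, 0.49 for Fdft1, 0.41 for Dhcr7, 0.24 for Hmgcs1 and 0.20 for Mvd. Of the 8, 3 were past 1.5-fold higher, where 15.6% of all clusters and 30.3% of those above background were. This difference depends on the scaling. The median difference over all clusters, set 2 minus set 1, was -0.16. Quantile normalization brought the median of the 8 from 0.53 to 0.18 with 1 past 1.5-fold. Centring each array on its median, 5.28 for the vehicle array of set 1 and 5.14 for that of set 2, gave 0.68 with 5. Across all arrays, the 4 of set 2 lay above the 4 of set 1 for Sqle and Lss, or 2 of 8 members, and for 12.9% of all clusters and 26.7% of those above background, a share close to that of the members.

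Most members followed the mean of the others. After each set's mean was taken out, the correlation over 8 arrays of a member with the mean of the other 7 was 0.95 for Fdft1 and Lss, 0.92 for Hmgcs1 and Idi1, 0.84 for Sqle, 0.78 for Mvd, 0.63 for Cyp51 and 0.54 for Dhcr7. These arrays share scaling and culture set, so the values are descriptions. Over the 4 arrays of set 1 alone, the correlations were 0.96 to 0.97 for Fdft1, Sqle and Lss, 0.69 for Dhcr7, 0.51 for Hmgcs1 and 0.36 for Idi1, while Cyp51 (-0.47) and Mvd (-0.50) ran against the others. Over the 4 of set 2 the correlations ran from 0.54 for Dhcr7 to 0.98 for Idi1. The mean of the 8 was 10.89 to 11.06 in the arrays of set 1. In set 2 it was 11.62 with vehicle, 11.57 with the EP4 antagonist, 10.84 with the TGFb inhibitor and 10.95 with the Wnt inhibitor.

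The 8 other synthesis enzymes that were measured were divided with the TGFb inhibitor and mostly lower with the Wnt inhibitor. With the TGFb inhibitor 5 of 8 were lower and 2 were past 1.5-fold (median -0.31), where 50.4% and 8.26% of all clusters were. With the Wnt inhibitor 7 of 8 were lower and 2 were past 1.5-fold (median -0.44), where 51.2% and 8.15% were. Fdps, which makes farnesyl diphosphate, stood at 8.96 with vehicle and 9.03 with the EP4 antagonist in set 2, against 8.60 with the TGFb and 8.10 with the Wnt inhibitor. Msmo1, a sterol methyl oxidase, stood at 9.80 and 9.84 against 9.54 and 9.41, and its lowest value of all, 8.99, came with diclofenac plus PGE2. Both inhibitor arrays were below both other arrays of set 2 for 5 of these 8 and for 20.1% of all clusters. The 5, named after their values were seen, were Fdps, Msmo1, Nsdhl, Hsd17b7 and Sc5d. Hsd17b7, a sterol ketoreductase, stood at 12.00 with diclofenac plus PGE2 against 11.14 with diclofenac alone. Pmvk, the phosphomevalonate kinase, stood at 7.10 against 6.34 in the same arrays.

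Genes of the sterol sensor showed no common direction. Srebf2, which encodes SREBP-2, stood at 14.68 with vehicle, 14.70 with the EP4 antagonist and 14.75 with the Wnt inhibitor in set 2, and at 14.13 with the TGFb inhibitor. Insig1, itself known as a target of SREBP-2, stood at 10.57, 10.48, 10.69 and 9.94 in the same order, so that the TGFb inhibitor array alone was low for both genes. Insig2, the other INSIG gene, stood at 9.25 with the TGFb inhibitor against 8.60 with vehicle. Mbtps1, a protease that cuts SREBP, was lower by 0.49 with the EP4 antagonist in set 1. Over the 5 measured genes the medians were -0.11 with the TGFb and 0.07 with the Wnt inhibitor.

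Genes of cholesterol export had mostly higher values under the inhibitors. Of 6 measured genes of cholesterol efflux and LXR, 5 were higher with the TGFb inhibitor, where 50.4% of all clusters were lower. Of these, 3 were past 1.5-fold, where 8.26% of all clusters were, and the median of the list was 0.59. With the Wnt inhibitor 5 were higher, where 51.2% of all clusters were lower. Of these, 3 were past 1.5-fold, where 8.54% of all clusters were, and the median was 0.60. Abca1, the exporter that loads cholesterol onto apolipoprotein A-I, stood at 10.11 with the TGFb and 9.24 with the Wnt inhibitor, against 8.68 with vehicle and 7.88 with the EP4 antagonist. Abcg1, which exports cholesterol to mature HDL, stood at 9.00 and 9.22 against 8.25 and 8.71. In set 1 Abcg1 stood at 9.04 with diclofenac and 7.42 with diclofenac plus PGE2, a difference of -1.62. Nr1h3, which encodes LXR alpha, stood at 7.72 and 7.00 with the inhibitors against 6.97 and 5.93. Both inhibitor arrays lay above both other arrays of set 2 for 4 of the 6 genes, which holds for 18.2% of all clusters. Ch25h, the cholesterol 25-hydroxylase, was above background in 4 of 8 arrays only, and stood at 6.52 with diclofenac and 5.48 with diclofenac plus PGE2. It was among the 3 genes past 1.5-fold with the Wnt inhibitor, at 5.93 against 5.29 with vehicle in set 2. The background levels of these arrays were 5.93 and 5.90, so that call rests on values at or near the floor.

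Among 7 measured genes of uptake and intracellular transport, Mylip differed most. Mylip encodes IDOL, a ubiquitin ligase that limits lipoprotein uptake and is known as an LXR target. It stood at 11.93 with the Wnt inhibitor against 9.87 with vehicle, 10.47 with the EP4 antagonist and 10.71 with the TGFb inhibitor, so it was 4.17-fold higher than vehicle. Lipa, the lysosomal acid lipase, stood at 10.73 with the Wnt inhibitor against 9.56 with vehicle. Npc1, which moves cholesterol out of lysosomes, stood at 8.45 with diclofenac plus PGE2 against 7.55 with vehicle. Stard4, a sterol carrier and known SREBP-2 target, stood at 7.17 with the TGFb inhibitor against 8.01 with vehicle and 7.80 with the Wnt inhibitor. The list's medians were -0.10 with the TGFb and 0.46 with the Wnt inhibitor.

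Fatty acid synthesis genes, which the related factor SREBP-1 controls, were lower with the TGFb inhibitor for 9 of 9 measured genes (5 past 1.5-fold, median -0.61), where 50.4% of all clusters were lower and 8.26% past 1.5-fold. With the Wnt inhibitor 6 of 9 were lower (2 past 1.5-fold, median -0.30), where 51.2% and 8.15% were. Fasn, the fatty acid synthase, stood at 10.99 with vehicle and 10.65 with the EP4 antagonist, against 10.15 with the TGFb and 10.00 with the Wnt inhibitor. Fads2, a fatty acid desaturase, stood at 12.05 and 12.60 against 11.01 and 11.47. Fads1, its partner desaturase, stood at 11.42 and 11.57 against 10.43 with the TGFb inhibitor, and at 11.86 with the Wnt inhibitor, so the inhibitors parted for this gene. Me1, the malic enzyme, stood at 12.12 and 11.47 against 11.19 and 11.28.

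Enzymes of other isoprenoid products showed medians of -0.40 with the TGFb and -0.08 with the Wnt inhibitor over 6 genes. Pggt1b, a protein prenyltransferase subunit, stood at 9.44 with the EP4 antagonist and 10.39 with vehicle in set 1, and at 9.72 and 9.81 in set 2. Fntb, a farnesyltransferase subunit, stood at 6.35 and 7.29 in set 1 and at 6.37 and 6.79 in set 2. Pdss2, of ubiquinone synthesis, was lower by 0.52 with the EP4 antagonist in set 2, and Coq2, of the same route, was higher by 0.49 with the TGFb inhibitor. Of the 41 measured genes of the 6 lists beside the members, 0 passed limma in either replicated comparison, whether or not the set was a block. Genes with an unadjusted p under 0.05 numbered 2 for inhibited minus active (9 with the block) and 0 for the EP4 antagonist (4 with the block).

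**Figure D4:**
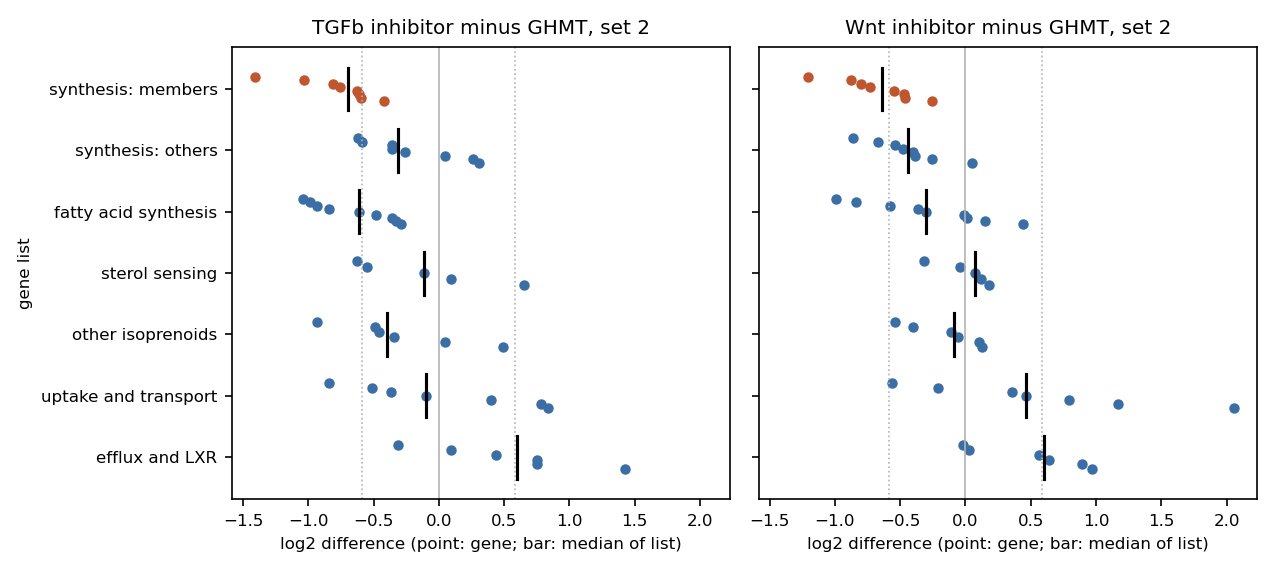
Log2 difference of the TGFb inhibitor (left) and Wnt inhibitor (right) array from the vehicle array of set 2, with 1 point per gene, a bar at each list's median and dotted lines at 1.5-fold. All 8 members (orange) lie left of 0 in both panels, with medians of -0.69 and -0.64, and the efflux list lies mostly to the right, with medians of 0.59 and 0.60.

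Genes of other cell types also differed in the inhibitor arrays. Of 8 adipocyte markers 5 were at background in all 8 arrays (Adipoq, Plin1, Lep, Cidec and Cd36). Lpl, the lipoprotein lipase, stood at 12.30 with the TGFb and 12.07 with the Wnt inhibitor against 9.57 with vehicle and 9.08 with the EP4 antagonist. Pparg stood at 6.85 and 7.12, against 5.24 and 5.75, which are at background. The log2 of the summed adipocyte level was 9.26 to 10.24 in the 6 other arrays and 12.38 and 12.16 with the inhibitors, and most of it came from Lpl, which other cell types express too. The mean log2 value of the 10 cardiomyocyte markers was 10.08 and 10.13 with the inhibitors and 9.73 with the EP4 antagonist, against 8.54 with vehicle in set 2. Over the 11 fibroblast markers the mean was 14.44 with vehicle, 14.24 with the EP4 antagonist, 13.83 with the TGFb inhibitor and 14.53 with the Wnt inhibitor. In the EP4 antagonist array of set 2 the summed adipocyte level was 9.44 against 9.84 with vehicle. The part of these marker genes in the enzyme values was not tested.

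The genes whose pattern was most like the mean of the 8 were found over 9043 genes above background in at least 4 arrays, by Pearson correlation of set-centred values over 8 arrays. The set-centred mean of the members ran from -0.09 to 0.08 in set 1 and from -0.41 to 0.38 in set 2. The correlations therefore rest mostly on the 4 arrays of set 2, and they were not split by set for these genes. Rrm1, a ribonucleotide reductase subunit, led with 0.987, followed by the histone gene H2bc22 (0.982), Whamm (0.980), the chromatin protein gene Hmgb2 (0.979), Zfp330 (0.976), H2bc12 (0.976), H2bc11 (0.975), the mitotic kinesin gene Kif20a (0.972), the kinetochore gene Ndc80 (0.971) and Slc43a1 (0.970). Slc43a1 passed the filter through set 1 alone, and its set 2 values, 4.06 to 5.28, were all at background. Its likeness in set 2 therefore rests on values at the floor. Hmgb2 (5.86) and Ndc80 (5.78) were also below the background level of 5.96 in the TGFb inhibitor array. Of all ranked genes, 143 (1.58%) reached 0.9. Rrm1 was lower than vehicle by 1.18 on the log2 scale with the TGFb inhibitor and by 1.18 with the Wnt inhibitor. Ndc80 differed by -1.30 and -0.91, and Kif20a by -0.98 and -0.70. The order rests on few arrays, since 3 of the 10 were also among the top 10 by Spearman correlation.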

How the data were processed

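RNA of 8 cultures was labelled from 100 ng each and read on 1 array per culture. The authors normalized the arrays with SST-RMA in Affymetrix Expression Console 1.4, per the series' design text and the submitters' processing notes, and deposited log2 values in 1 table; these were used as they stand. Of 28846 rows, 6640 control probe sets were left out, and 19572 of 22206 clusters had a symbol in the platform annotation. Replicated comparisons used limma 3.58.1 in R 4.3.3 (lmFit, eBayes, two-sided, Benjamini-Hochberg over all clusters, threshold 0.05), and comparisons of 1 array with 1 were counted at 1.5-fold. The limma fits were tested on simulated data. The titles give the TTF set number, and the vehicle and EP4 antagonist values, less each group's mean, correlated within a set (r = 0.724 over clusters), so a fit with the set as a block was run too. Arrays carry no count depth, and their number limits the precision.

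Members, lists and tests were chosen with earlier results of these data known. Beside the members, the text names the 4 genes of each list with the largest difference in any within-set comparison, those between the EP4 antagonist, TGFb and Wnt inhibitor arrays left out, and the 10 most like the members' mean; Nsdhl, Sc5d, Lpl and Pparg were named after their values were seen. Of 61 listed pathway genes 49 were measured, and the rest were not analysed here; of 53 marker genes 50 were measured. Alternatives were other scalings, priors, filters, thresholds and references, the set as a block, and leaving out each array.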

Additional observations from a re-analysis of the deposited data

Results flagged for a closer look

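With the EP4 antagonist, 5 enzymes differed from vehicle in opposite directions in the TTF sets, with 1 pair of arrays in each set. The difference between the sets was not tested. How many of all clusters turned direction was not counted, so the 5 cannot be called particular to the enzymes. Of all clusters 50.9% were lower in set 1 and 50.1% in set 2. Mvd differed by -0.22 in set 1 and 0.27 in set 2, Fdft1 by -0.21 and 0.05, Sqle by -0.25 and 0.52, Lss by -0.22 and 0.09, and Cyp51 by 0.42 and -0.38.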

How the results depend on the processing

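No member passed limma under any alternative run. With the TTF set as a replicate block, 84 clusters passed for PGE2-EP4 signalling inhibited minus active, where 0 passed without it. With the block and a trended robust prior 143 passed, with the block and quantile normalization 78, and with the block and only clusters above background in 2 arrays 123. For the EP4 antagonist minus GHMT these last 3 settings gave 8, 31 and 1 clusters, where 0 passed in the fit without the block. Leaving out 1 array at a time gave 0 to 3 clusters for the first comparison (0 to 192 with the block, with 192 without the vehicle array of set 1, 17 without diclofenac plus PGE2, 4 and 2 without the EP4 antagonist and diclofenac arrays of set 1, and 0 without either set 2 array) and 1 to 25 for the EP4 antagonist, and 0 members each time. The block changed no call of a member. For the EP4 antagonist no array could be left out with the block kept, since no residual degrees of freedom remain.

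At 2-fold instead of 1.5-fold, 2 members were lower with the TGFb inhibitor, where 2.52% of all clusters were. With the Wnt inhibitor 1 member was lower, where 1.57% of all clusters were. The vehicle array of set 2 was 2-fold higher than that of set 1 for 1 member. This held for 6.47% of all clusters and 12.7% of those above background, a share close to that of the members. For set 2 minus set 1 the count of members higher was 1 with quantile normalization and 5 with arrays centred on the median, and the median of the 8 was 0.18 and 0.68. Of the 10 most similar genes 3 were shared with the ranking by Spearman correlation. Leaving out 1 array turned the sign of small member differences. For inhibited minus active the ranges were -0.05 to 0.30 for Mvd, -0.43 to 0.09 for Idi1, -0.51 to 0.32 for Sqle, -0.36 to 0.11 for Lss and -0.33 to 0.23 for Cyp51; with the block Sqle ran from -0.23 to 0.13 and Cyp51 from -0.24 to 0.09. For the EP4 antagonist they were -0.32 to 0.37 for Mvd, -0.48 to 0.31 for Idi1, -0.46 to 0.29 for Fdft1, -0.69 to 0.96 for Sqle, -0.51 to 0.38 for Lss and -0.55 to 0.58 for Cyp51. With the EP4 antagonist array as reference, Dhcr7 with the Wnt inhibitor was 0.21. The cause of these shifts was not tested.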
